A study of Mus musculus with 14 samples.

Results

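Cytosolic ribosomal protein genes were examined in brains of Rik null and wild-type (WT) mice. Their members were the protein-coding rows of the deposited table whose symbol begins with Rpl or Rps and a number, or with Rplp0, Rplp1 or Rplp2, leaving out the Rps6k kinases. The rule found 93 genes of 56748 in the table. Of these, 76 are core genes, each encoding a protein of the ordinary ribosome, 16 are paralogs or retrogene copies, and 1, Rps19bp1, encodes a protein that binds a ribosomal protein. All 76 core genes passed the filter on low counts. Together with 7 paralogs and Rps19bp1 they made 84 members tested.

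The 7 Rik null libraries came from mice homozygous for a deletion in the first intron of 2310061I04Rik (Rik), on strain C57BL6/J, at postnatal day 23, with no further treatment. The 7 WT libraries came from untreated mice of the same strain and age, and the study describes the animals as littermates. By the labels 4 Rik null and 3 WT libraries are from females, and 3 Rik null and 4 WT libraries from males. The allele arose once, in a single embryonic stem cell clone made to carry a floxed Traf7 gene, and was bred away from that gene, so any other linked difference of the clone cannot be told apart from the deletion. Rik null mice are runted and ataxic and die soon after this age, so the gene's effect and that of terminal illness cannot be told apart either. Each library is of brain tissue, which the series describes as 1 side of a brain cut sagittally.

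Cytosolic ribosomes translate nearly all cellular mRNAs. The large subunit is built from Rpl proteins and forms peptide bonds, the small subunit is built from Rps proteins and decodes the mRNA, and the acidic P proteins form a stalk on the large subunit that recruits the GTPases of translation. Ribosomal protein mRNAs begin with a pyrimidine tract (5′ terminal oligopyrimidine, or TOP, mRNAs), through which the kinase complex mTORC1 and the RNA-binding protein Larp1 control their translation, and cells normally make the proteins in matched amounts.

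The starts of member genes were shown first, because the pyrimidine tract at the first base is the feature that TOP mRNAs are named for. RefSeq start windows on GRCm38.p6 were matched by symbol for 66 of 93 members, 56 of them with 1 window, 8 with 2 and 2 with 3. Of the 15 members that differed between the genotypes, 9 had a window, and 6 did not, among them Rpl7, Rps14, Rpl32, Rpl17 and Rps27a. The 30 bases printed run from 15 bases upstream of the annotated transcript start into the first 15 bases of the first exon, 5′ to 3′ on the gene's strand. Capitals mark runs of at least 5 pyrimidines. The first 8 are of members higher in Rik null brains, the next is of Rpl13a, the member lower in Rik null brains, and the last is of Rplp2, which passed in neither direction.
Rps15a (chr7:118116133-118116162, minus strand): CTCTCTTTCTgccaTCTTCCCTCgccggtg
Rps18 (chr17:33955651-33955680, minus strand): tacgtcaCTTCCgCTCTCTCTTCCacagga
Rps27 (chr3:90213634-90213663, minus strand): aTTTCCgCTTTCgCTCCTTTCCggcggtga
Rps7 (chr12:28635939-28635968, minus strand): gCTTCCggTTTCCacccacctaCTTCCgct
Rpl6 (chr5:121204486-121204515, plus strand): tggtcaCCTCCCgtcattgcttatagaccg
Rps25 (chr9:44407699-44407728, plus strand): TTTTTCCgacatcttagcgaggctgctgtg
Rpl5 (chr5:107900513-107900542, plus strand): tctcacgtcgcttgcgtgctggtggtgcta
Rps3a1 (chr3:86142654-86142683, minus strand): ttaaagccggaagggcgaaagagcaagggt
Rpl13a (chr7:45128731-45128760, minus strand): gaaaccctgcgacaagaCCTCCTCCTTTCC
Rplp2 (chr7:141447636-141447665, plus strand): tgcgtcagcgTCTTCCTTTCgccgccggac

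A C at the annotated first base followed by 4 further pyrimidines was found in 14 of 78 member windows (17.9%), against 2.51% of all 32851 windows in the table. A run of at least 8 pyrimidines within 25 bases of the start lay on the gene's strand in 44.9% of member windows and in 19.7% of all windows. On the opposite strand such runs were in 7.69% of member windows and 21.6% of all windows. In the whole window of 300 bases, CCGGAAG on either strand was in 33.3% of member windows and 8.86% of all windows, and GCCATNTT on either strand in 21.8% and 6.05%. The letters TATAAA on either strand were in 8.97% of member windows and in 13.6% of all windows. CCGGAAG on the opposite strand reads CTTCCGG, whose first 5 letters are pyrimidines, so a window can be counted under both that motif and a pyrimidine run. CCGGAAG and GCCATNTT can also share end letters. Neither Rpl5 nor Rps3a1 has a pyrimidine run of 5 in the printed bases, whereas Rplp2, which did not pass, has one across its start. Within 25 bases of its start, Rpl5 has a run of at least 8 that the printed bases do not show. Rps3a1 has no such run on the gene's strand, and neither has Rplp0, which did not pass either.

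Total counts were 14.7 to 17.9 M per library. Levels are given as CPM, read counts relative to the TMM-scaled library size, and log2FC is the log2 fold change of Rik null over WT. The quasi-likelihood test of edgeR was used, its p-values were adjusted by the Benjamini-Hochberg method over the 16882 genes tested, and ± is the SD of 7 libraries. Rik, the gene with the deletion, had 1.03 to 3.37 CPM in Rik null libraries and 30.3 to 40.9 CPM in WT libraries. By this gene all 14 libraries matched their genotype labels, while sex is given as labelled. Markers of myelinating oligodendrocytes summed to 13057 to 16219 CPM in Rik null libraries and 18390 to 22742 CPM in WT libraries, with 9 of 10 lower, none at 0 and none higher. Markers of 8 astrocyte genes summed to 4154 to 4933 CPM in Rik null libraries and 5396 to 6662 CPM in WT libraries, and 5 were lower. Markers of 8 microglial genes summed to 210 to 271 CPM in Rik null libraries and 284 to 399 CPM in WT libraries, with 5 lower. All 5 blood genes and 4 of 7 choroid plexus genes were lower, and 2 of 7 endothelial genes were higher. Markers of 9 neuronal genes summed to 5458 to 5733 CPM in Rik null libraries and 5419 to 6101 CPM in WT libraries, with 1 higher and 2 lower. In whole tissue, fewer cells of a type and less RNA per cell cannot be told apart, and the part that cell make-up plays in the members' levels was not tested. WT 4 held 412 CPM of 7 pituitary hormone genes, while Rik null libraries held 3.55 to 9.06 CPM and the WT median was 10.03 CPM.

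A minority of ribosomal protein mRNAs were higher in Rik null brains, a share close to that of all genes, by small amounts. Of 84 members tested, 14 rose, 1 fell and 69 passed in neither direction, so that 16.7% were higher, beside 16.5% of all genes tested, and 1 was lower, beside 17.9% of all genes. In either direction 17.9% of members passed, beside 34.4% of all genes. The median log2 fold change of the 84 members was 0.18, against -0.0005 over all genes tested, and 72 members lay above 0 and 12 below it. No member changed by 2-fold, the range being from -0.58 (Rps10) to 0.73 (Rpl17). The ranges of the 7 Rik null and the 7 WT libraries overlapped in every one of the 84 members tested, whereas they did not overlap in 12.4% of all genes tested. Of 30 small-subunit genes (Rps27a included) 8 were higher, at a median of 0.21, and of 46 large-subunit genes (P-stalk included) 6 were higher and 1 lower, at a median of 0.18, and this difference was not tested.

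**Figure D1:**
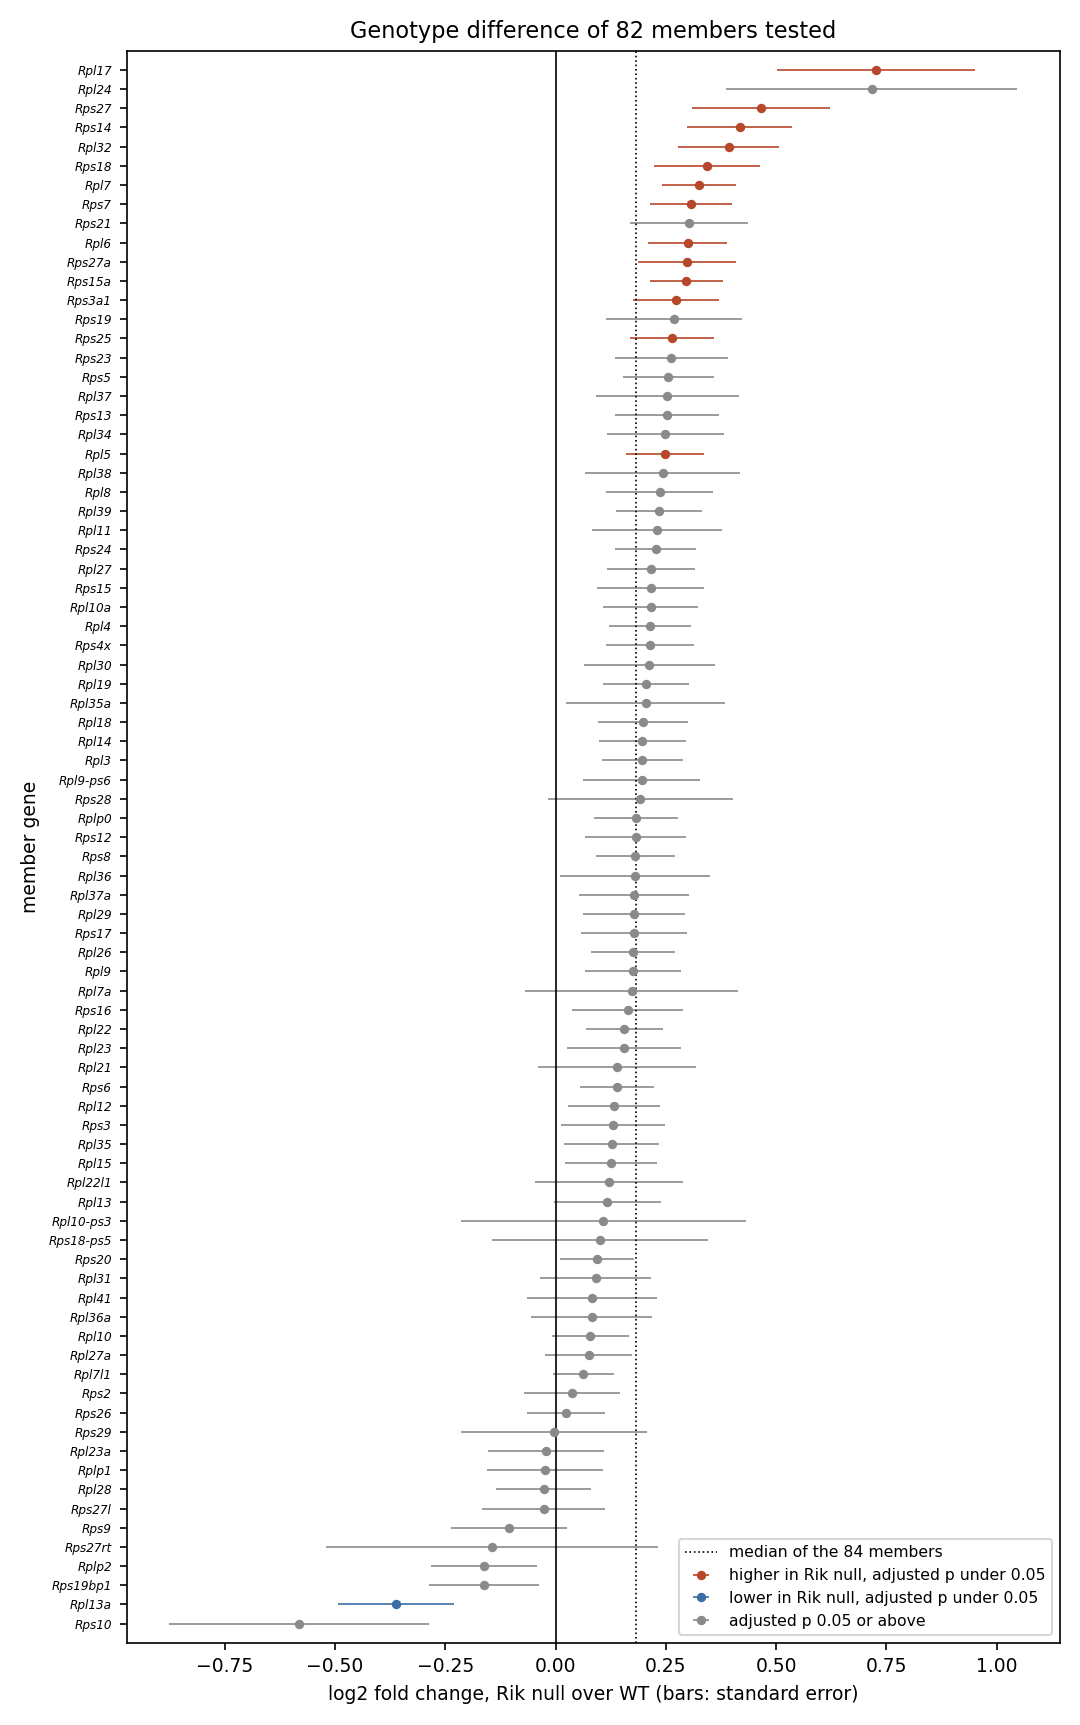
Log2 fold change of Rik null over WT brains (x axis) with its standard error for 82 of the 84 members tested, sorted by size. Members higher in Rik null, the 1 lower and those in neither direction are coloured apart, and most points lie between 0 and 0.5, around the dotted median of 0.18 over all 84.

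The count depended on single libraries. Leaving out Rik null 1 left 8 members higher, and leaving out WT 3, WT 6 or WT 7 left 9 in each case, whereas leaving out WT 2 gave 25. With library size alone as the scaling, 34 members were higher and 0 lower, at a median of 0.25, and all genes tested then had a median of 0.07 and 63.8% of calls higher in place of 47.9%. With an offset for gene length 34 of 84 members were higher and 1 was lower, at a median of 0.21. Of all 16882 genes tested, 3245 were then higher, at a median of 0.01, beside 3890 with library size alone and 2783 in the main fit.

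Rpl7 encodes a large-subunit protein and had the smallest p of all members. It was measured at 268 to 384 CPM in Rik null libraries (median 286) and at 200 to 283 CPM in WT libraries (median 236). Of the 7 Rik null libraries 5 lay above the highest WT library. Its means were 303 ± 38.7 CPM in Rik null and 242 ± 30.8 CPM in WT, a log2FC of 0.32 (SE 0.08, adjusted p = 0.00452). Rpl7 lies on the minus strand of GRCm38 chromosome 1, from 16101295 to 16104662.

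Rps15a, of the small subunit, had 157 to 239 CPM in Rik null libraries (median 171) and 122 to 162 CPM in WT libraries (median 149). Again 5 Rik null libraries lay above the highest WT library, and its WT libraries varied least of all members tested, with a coefficient of variation of 8.97%. The log2 fold change was 0.30 (SE 0.08, adjusted p = 0.00829). Rps14, whose protein lines the mRNA path of the small subunit, had 286 to 443 CPM in Rik null libraries (median 294) and 169 to 291 CPM in WT libraries (median 265), a log2FC of 0.42 (SE 0.12, adjusted p = 0.00946). Here WT 2 alone reached the Rik null range, and the other 6 WT libraries lay below all Rik null libraries. Rpl32, of the large subunit, had 124 to 183 CPM in Rik null libraries (median 146) and 75.7 to 141 CPM in WT libraries (median 118), a log2FC of 0.39 (SE 0.11, adjusted p = 0.0114).

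Further large-subunit genes had positive log2 fold changes, and of those named next only Rpl6 and Rpl5 passed. Rpl6 averaged 278 ± 43.1 CPM in Rik null and 226 ± 29.3 CPM in WT (log2FC 0.30, adjusted p = 0.0135). Rpl5, whose protein can bind the p53 regulator Mdm2 outside the ribosome, averaged 228 ± 32.2 CPM in Rik null and 192 ± 25.6 CPM in WT (log2FC 0.25, adjusted p = 0.0335). Rpl11, which acts with Rpl5, averaged 174 ± 38.7 CPM in Rik null and 149 ± 38.5 CPM in WT and missed the threshold (log2FC 0.23, adjusted p = 0.237). Rpl11 had nearly the fold change of Rpl5 with a wider spread among libraries. Rpl4 and Rpl3, of the large subunit, averaged 534 ± 90.7 and 521 ± 82.0 CPM in Rik null and 460 ± 59.7 and 454 ± 62.6 CPM in WT, with log2FC of 0.21 and 0.20 that did not pass (adjusted p = 0.0791 and 0.104).

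Among small-subunit genes, Rps7 averaged 222 ± 33.8 CPM in Rik null and 180 ± 25.9 CPM in WT (log2FC 0.31, adjusted p = 0.0139). Rps18 averaged 167 ± 29.8 CPM in Rik null and 132 ± 27.6 CPM in WT (log2FC 0.34, adjusted p = 0.0318). Rps3a1 averaged 329 ± 58.4 CPM in Rik null and 273 ± 37.1 CPM in WT (log2FC 0.27, adjusted p = 0.0351), and Rps25 averaged 186 ± 29.2 CPM in Rik null and 155 ± 21.8 CPM in WT (log2FC 0.26, adjusted p = 0.0363). Rps27a encodes ubiquitin fused to a ribosomal protein, and averaged 85.2 ± 14.5 CPM in Rik null and 69.3 ± 12.6 CPM in WT (log2FC 0.30, adjusted p = 0.0422). Rps6, whose protein is the substrate of the S6 kinases that mTORC1 activates, averaged 241 ± 33.7 CPM in Rik null and 219 ± 25.4 CPM in WT and missed the threshold (log2FC 0.14, adjusted p = 0.206).

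These calls were not equally firm. Rps14, Rpl7, Rpl6, Rps7, Rps15a and Rpl32 kept theirs in 30 of 31 alternative settings, losing it in labelled females alone. Rpl17 kept its call in 28 settings. Rps3a1, Rpl5, Rps25 and Rps18 each lost theirs without Rik null 1, WT 3, WT 6 or WT 7, Rps25 also without Rik null 4 or 5, and Rps18 also without Rik null 5. Rps27 lost its call in 9 settings, among them the DESeq2 test, the robust fit and those without Rik null 1, Rik null 5 or WT 4. Rps27a, nearest to the threshold, lost its call in 15 settings, among them those without Rik null 1, 2, 4, 5 or 7 or WT 3, 4, 5, 6 or 7.

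**Figure D2:**
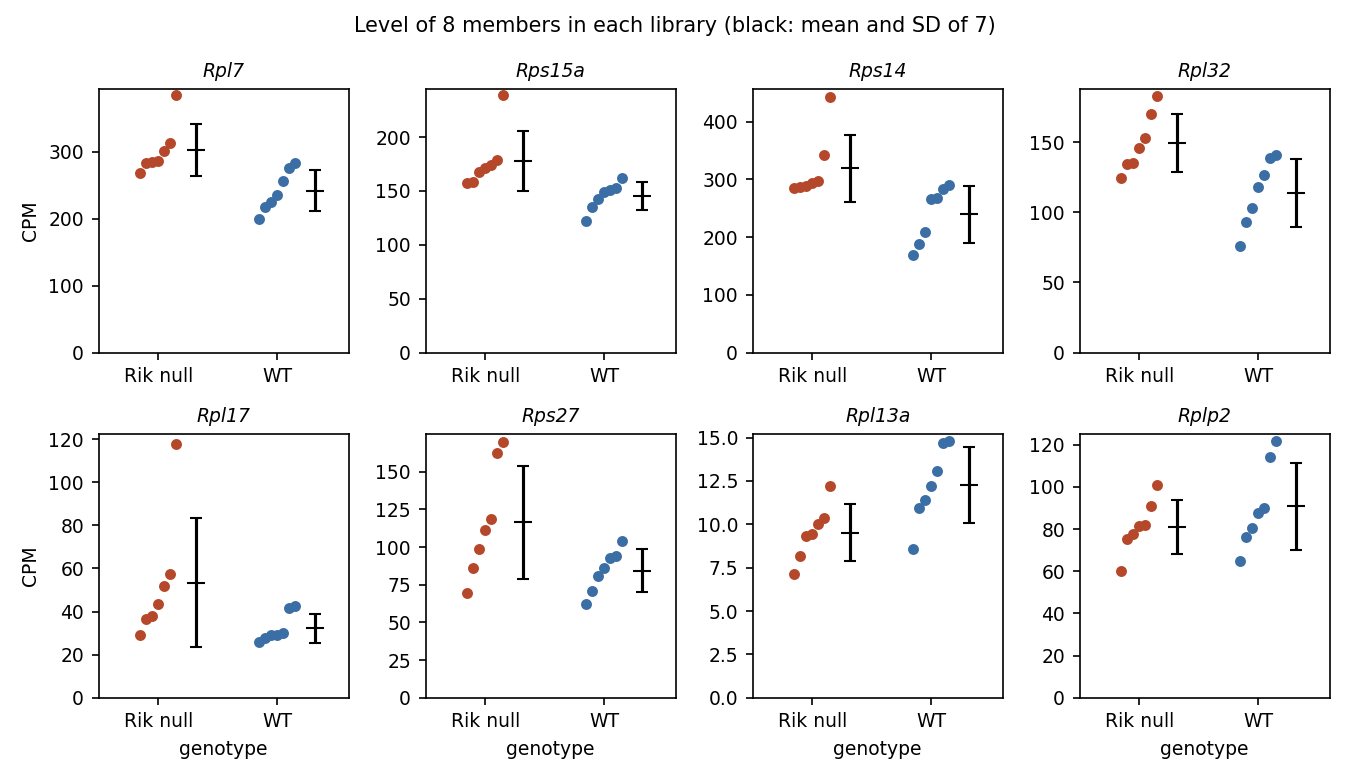
CPM of 8 members in the 7 Rik null (left) and 7 WT (right) libraries, points sorted by value within a genotype, with the mean and SD in black. Rpl7, Rps15a, Rps14 and Rpl32 were higher in Rik null with overlapping ranges, 1 Rik null library of Rpl17 stood at 117 CPM, and Rpl13a was lower, at 9.53 against 12.2 CPM on average.

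Rpl13a was the single member that fell. It encodes a large-subunit protein that in human cells also takes part in silencing inflammatory mRNAs. It had 7.13 to 12.2 CPM in Rik null libraries (median 9.42) and 8.60 to 14.8 CPM in WT libraries (median 12.2), with overlapping ranges. This is low for a core gene, as the median of the core genes' WT means was 130 CPM. The 1 named copy of Rpl13a had no count, and whether reads of Rpl13a were counted elsewhere or dropped was not tested. The log2 fold change was -0.36 (SE 0.13, adjusted p = 0.0366, 0.00981 to 0.195 over the alternatives). The call was lost when any 1 of Rik null 2, 3, 4 or 6 or WT 1, 2, 3 or 5 was left out, with log2FC between -0.36 and -0.30 and adjusted p between 0.0523 and 0.0810.

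The P-stalk genes passed in neither direction. Rplp0, the base of the stalk, had 252 to 385 CPM in Rik null libraries (median 290) and 197 to 303 CPM in WT libraries (median 269), a log2FC of 0.18 (SE 0.09, adjusted p = 0.143). Rplp1 had 266 to 421 CPM in Rik null libraries (median 338) and 222 to 487 CPM in WT libraries (median 321), a log2FC of -0.02 (SE 0.13, adjusted p = 0.908), whose sign turned under some settings. Rplp2 had 60.0 to 101 CPM in Rik null libraries (median 81.3) and 64.8 to 122 CPM in WT libraries (median 87.6), a log2FC of -0.16 (SE 0.12, adjusted p = 0.316). Of these 3 genes 0 were at an unadjusted p under 0.05, and 0 passed in DESeq2.

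The members moved up and down together from library to library. The core level, the mean log2 CPM of the 76 core genes minus its WT mean, averaged 0.19 ± 0.22 (SD, n = 7) in Rik null libraries and had an SD of 0.27 (n = 7) about its zero point in WT libraries. It was 0.59 in Rik null 1 and 0.34 in Rik null 5, then 0.15, 0.12, 0.10, 0.07 and -0.07 in Rik null 2, 4, 7, 6 and 3. In WT libraries it was 0.33 in WT 2, 0.25 in WT 1, 0.11 in WT 5, 0.04 in WT 4, -0.08 in WT 3, -0.17 in WT 7 and -0.48 in WT 6. The genotypes overlapped over most of this range. Rik null 1 and Rik null 5 lay above the highest WT library, the second of these narrowly, and WT 6, WT 7 and, narrowly, WT 3 lay below the lowest Rik null library. Rik null 1 was the highest of 14 libraries in 56 of 76 core genes, and WT 6 the lowest in 72. All members together took 1.14 to 1.70% of counts in Rik null libraries and 0.809 to 1.31% in WT libraries.

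**Figure D3:**
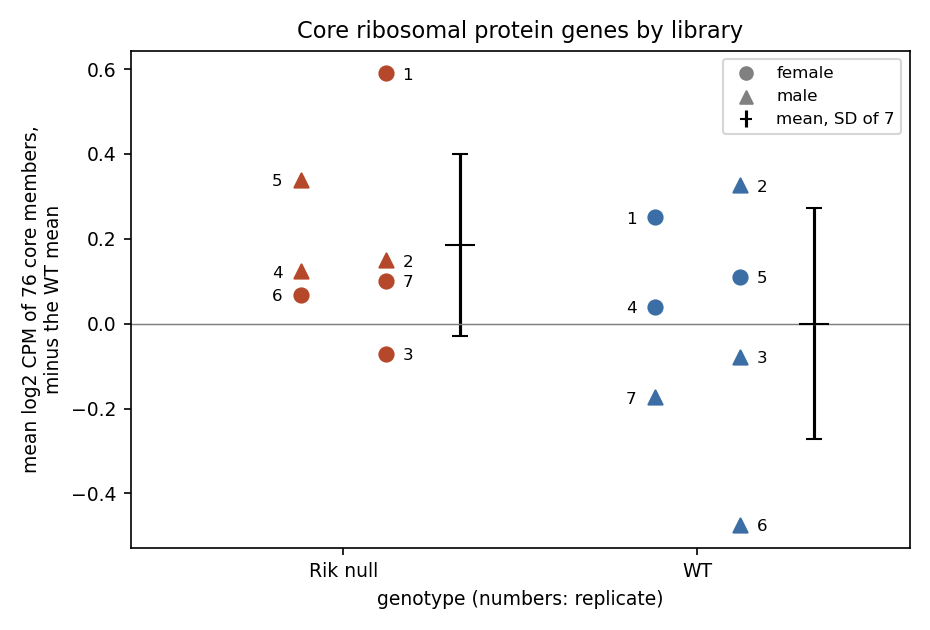
Core level of each library (y axis: mean log2 CPM of 76 core genes minus the WT mean) by genotype, with circles for females, triangles for males, replicate numbers beside the points, and the mean and SD of 7 in black. Rik null 1 lies highest at 0.59 and WT 6 lowest at -0.48, and most other libraries of both genotypes mix. WT 7 and, narrowly, WT 3 lie below all Rik null libraries, and Rik null 5 lies narrowly above all WT libraries.

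After each gene's genotype mean was removed, the median Pearson correlation of log2 CPM over all 2850 pairs of core genes was 0.85 across the 14 libraries, which share their depth and scaling. The same measure was 0.75 for 38 complex I subunit genes, 0.65 for 37 proteasome subunit genes and 0.37 for 77 mitochondrial ribosomal protein genes. Of the 76 core genes, 73 followed the mean of the other core genes with a correlation over 0.5 and 47 with one over 0.9. The 3 exceptions were Rps10, Rpl24 and Rpl17 (0.19, 0.22 and 0.36). The other sets also had their lowest level in WT 6, at -0.45 relative to the WT mean for complex I, -0.22 for proteasome and -0.27 for mitochondrial ribosomal protein genes. The proteasome level was highest of the 14 libraries in Rik null 1, at 0.47, as the core level was. The complex I level in Rik null 1 was 0.13, against 0.34 and 0.35 in WT 1 and WT 2, and that of mitochondrial ribosomal protein genes 0.05. Mitochondrial ribosomal protein genes had a median log2FC of -0.09 with 5 higher and 17 lower, and proteasome genes a median of 0.21 with 16 higher and 0 lower (24 at an unadjusted p under 0.05, and 17 higher and 0 lower in DESeq2). Of mitochondrial ribosomal protein genes 6.49% were higher and 28.6% passed in either direction, and of proteasome genes 43.2% were higher. Beside these, 16.5% of all genes tested were higher, 17.9% were lower and 34.4% passed in either direction. The 18S rRNA row Rn18s-rs5 held 9906 to 22712 CPM in Rik null libraries and 8722 to 21120 CPM in WT libraries, and its part in the core level was not tested.

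Spread among WT libraries differed between members. The median coefficient of variation of the members tested was 20.2% in WT libraries and 17.0% in Rik null libraries. The most variable core genes in WT were Rpl7a, Rps29 and Rps28 (43.2, 42.7 and 41.2%), and Rps29, for example, had 74.8 to 195 CPM in Rik null libraries (median 119) and 68.0 to 233 CPM in WT libraries (median 119). Core genes were split at their median length, and the 38 shorter had a median variation of 21.0% and the 38 longer one of 18.01%, with median log2FC of 0.19 and 0.20. Of the shorter genes 5 were higher and of the longer 9 were higher and 1 lower.

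Levels were also set relative to the other core genes. When the core mean of a library was subtracted from each gene's log2 CPM, 6 of 76 core genes (7.89%) had non-overlapping Rik null and WT libraries, beside 6.65% of all genes tested treated in the same way, a share near the background. Without the subtraction it was 0 of 76 core genes, beside 12.4% of all genes. The subtraction takes shared variation out of core genes and can add it to other genes, so the 7.89% and 6.65% are not like for like. Of the 6 core genes, 5 are named here after their values were seen, as a description. Rps14 and Rpl32 were higher on this relative scale, by 0.24 and 0.23. Rpl13a, Rplp2 and Rps9 were lower, with differences of -0.54, -0.33 and -0.28. Rps9 lay 0.06 to 0.32 from the core mean in Rik null libraries and 0.40 to 0.62 in WT libraries, although its levels of 110 to 209 CPM in Rik null and 110 to 210 CPM in WT missed the threshold (log2FC -0.11, SE 0.13). Rplp2 lay -0.82 to -0.51 from the core mean in Rik null libraries and -0.50 to -0.12 in WT libraries.

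Levels were compared between genes per kilobase of the table's gene length. Rplp1 was highest of the members tested, at 698 CPM per kb in Rik null and 710 CPM per kb in WT, followed by Rps15, a protein of the small subunit's head, at 363 and 313 CPM per kb, and Rps3a1 at 337 and 279 CPM per kb. In WT libraries Rpl24 was lowest, at 0.889 CPM per kb in Rik null and 0.542 CPM per kb in WT, and in Rik null libraries Rps10 was lowest, at 0.511 CPM per kb in Rik null and 0.766 CPM per kb in WT. Rpl13a was next lowest among core genes, at 4.51 CPM per kb in Rik null and 5.79 CPM per kb in WT. These lengths are of merged gene models (499 bases for Rplp1, 6270 for Rps15a), so the order depends on them. Rpl24 had 0.459 to 1.58 CPM in Rik null libraries (median 0.902) and 0.331 to 0.903 CPM in WT libraries (median 0.468), and its log2FC of 0.72 (SE 0.33) did not pass (adjusted p = 0.0982). These levels rest on 8 to 28 counts per Rik null library and 5 to 14 per WT library, which is low for a core gene. Whether reads of Rpl24 were counted elsewhere or dropped was not tested.

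Counts of several members stood in rows of near-identical copies, and their values are uncertain for that reason. The table holds 310 further rows named as copies of members and not annotated as protein-coding, so none is itself a member, 203 with a count, 48 of them above 1 CPM, which together averaged 715 CPM in Rik null and 625 CPM in WT, beside 12863 and 11314 CPM in the members. Families were then formed of a member and its named copies, here counting protein-coding copies such as Rps27rt as copies, and in 16 of 62 families the copies held over 10% of counts. Rps10 had 1.18 ± 0.485 CPM in Rik null and 1.77 ± 0.616 CPM in WT, while its copy Rps10-ps2 had 39.7 CPM in Rik null and 40.4 CPM in WT. Summed, the Rps10 family had a log2FC of -0.05 (SE 0.13), in place of -0.58 (SE 0.30) for the gene row.

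Rpl17 had 29.1 to 117 CPM in Rik null libraries (median 43.6) and 25.8 to 42.5 CPM in WT libraries (median 29.1), a log2FC of 0.73 (SE 0.22, adjusted p = 0.0157). The value of 117 CPM was that of Rik null 5, and in the same library Rpl17-ps10 held 36.3 CPM, against 107 CPM or more in the other Rik null libraries. Copies held 80.2% of the family's counts. With the copies added, Rpl17 averaged 243 CPM in Rik null and 188 CPM in WT, a log2FC of 0.37 (SE 0.10, adjusted p = 0.00812). Over all alternatives the adjusted p of Rpl17 lay between 3.50e-04 and 0.306. Rps27 had 69.4 to 170 CPM in Rik null libraries (median 111) and 62.4 to 104 CPM in WT libraries (median 85.9), a log2FC of 0.47 (SE 0.16, adjusted p = 0.0249). Its retrogene Rps27rt had 18.3 to 73.2 CPM in Rik null libraries (median 28.2) and 11.6 to 87.8 CPM in WT libraries (median 25.9), the widest spread among WT libraries of all members tested (74.0%). Summed, Rps27 and its copies had a log2FC of 0.30 (SE 0.12) and missed the threshold (adjusted p = 0.05004), and over all alternatives its adjusted p lay between 0.00195 and 0.430. This was the single call that summing changed, and 13 members were then higher and 1 lower.

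**Figure D4:**
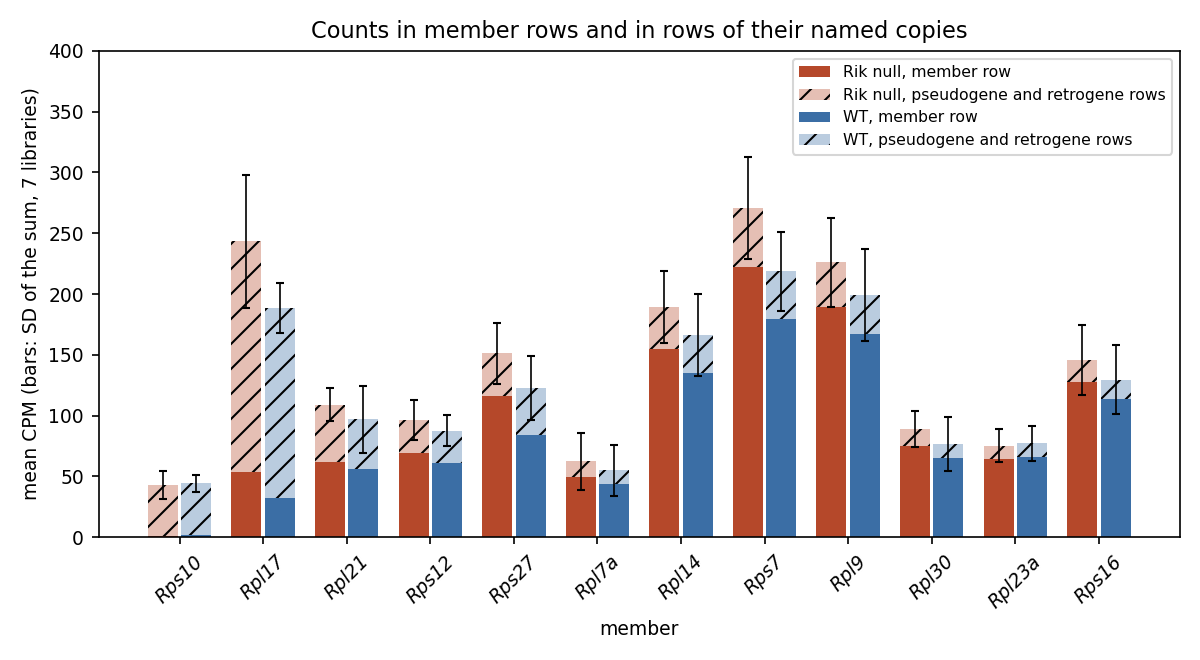
Mean CPM in the row of each of 12 members (solid) and in the rows of their named copies (hatched), Rik null left of WT, with the SD of the sum over 7 libraries. The copies hold 96.6% of counts for Rps10 and 80.2% for Rpl17, and 12.3% for Rps16 at the right.

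The remaining paralogs passed in neither direction, with 0 of 7 tested at an unadjusted p under 0.05 and 0 in DESeq2. Rpl22l1, the paralog of Rpl22, averaged 27.9 ± 6.13 CPM in Rik null and 25.7 ± 7.72 CPM in WT (log2FC 0.12, SE 0.17). Rpl7l1 averaged 49.2 ± 2.02 CPM in Rik null and 47.1 ± 5.27 CPM in WT (log2FC 0.06, SE 0.07), and unlike Rpl7 it followed the core genes weakly (correlation 0.45, against 0.79 for Rpl7). Rps27l averaged 12.2 ± 2.59 CPM in Rik null and 12.4 ± 2.27 CPM in WT (log2FC -0.03, SE 0.14). The copy-like genes Rpl9-ps6, Rps18-ps5 and Rpl10-ps3 had log2FC of 0.20, 0.10 and 0.11. Rps19bp1 averaged 10.9 ± 1.70 CPM in Rik null and 12.2 ± 2.16 CPM in WT (log2FC -0.16, SE 0.12).

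In 9 members counts were too low to test. Rpl39l and Rpl10l are known from testis and Rpl3l from heart and skeletal muscle. Rpl39l had 0 to 7 counts in Rik null libraries and 0 to 7 in WT libraries, and Rpl3l 1 to 9 and 0 to 7. Rpl36al had 6 to 29 counts in Rik null libraries and 2 to 11 in WT libraries, Rpl36a-ps1 1 to 9 and 3 to 14, and Rps23rg1 0 to 14 and 0 to 1. Rpl10l, Rps18-ps6, Rplp2-ps1 and Rpl36-ps4 had no count in any library.

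The sexes were then set side by side. Among females (4 Rik null, 3 WT) 0 of 85 members tested passed and 0 were at an unadjusted p under 0.05, beside 7.32% of all genes tested that were higher and 9.09% that were lower (16.4% in all), and the median log2 fold change was 0.05. Among males (3 Rik null, 4 WT) 16 of 84 were higher and 0 lower, beside 7.17% of all genes higher and 8.65% lower, with a median of 0.30. A difference between the sexes was not shown. In the interaction fit of genotype and sex 0 members passed and 0 were at an unadjusted p under 0.05, as 0 of all 16882 genes passed. The median male minus female difference was 0.22 in members and 0.003 over all genes, and the smallest interaction p in members were 0.0548 for Rpl32 (0.61 in males and 0.16 in females) and 0.0559 for Rpl17 (1.14 and 0.31). WT 6, WT 7 and WT 3, the 3 WT libraries of lowest core level, are male, as is WT 2, the highest WT library, and Rik null 1, the highest Rik null library, is female.

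**Figure D5:**
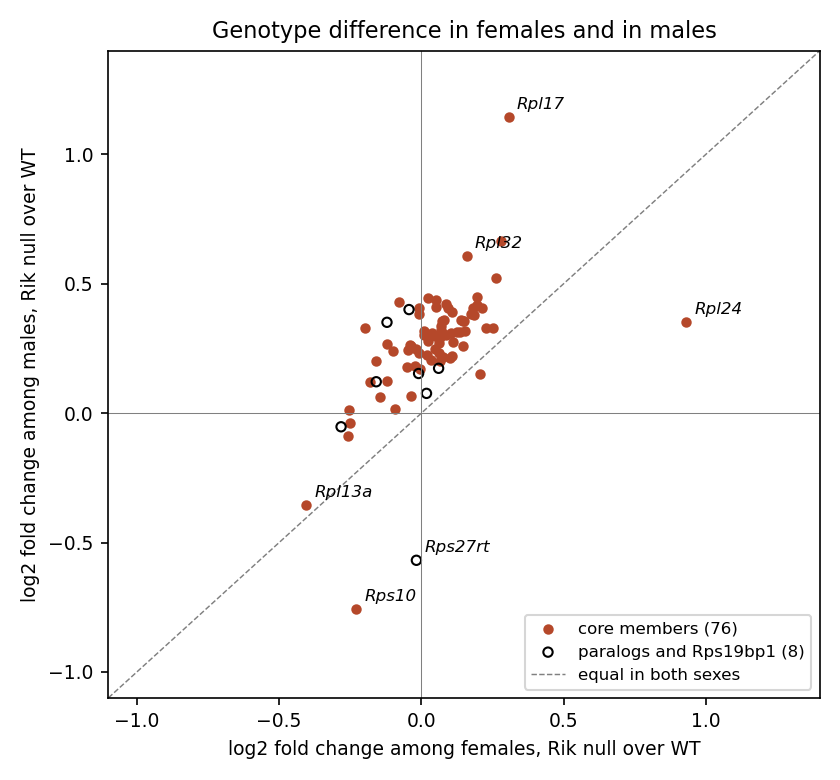
Log2 fold change of Rik null over WT among females (x axis) and among males (y axis) for the 84 members tested, core genes filled and other members open, with the line of equality dashed. Most core genes lie above the line, with core medians of 0.0626 among females and 0.30 among males, and Rpl24, of low counts, lies far below it.

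Core ribosomal genes whose names fall outside the rule were set beside the members. Rpsa, which also binds laminin at the cell surface, had 343 to 504 CPM in Rik null libraries (median 367) and 317 to 480 CPM in WT libraries (median 396), a log2FC of -0.03 (SE 0.09), whose sign turned under some settings. Rack1, a signalling scaffold on the small subunit, had a log2FC of 0.21 (SE 0.10, adjusted p = 0.113), and Fau, whose product carries a ubiquitin-like domain, one of 0.20 (SE 0.12, adjusted p = 0.207). None of these 3 passed in edgeR or in DESeq2, and 1, Rack1, was at an unadjusted p under 0.05.

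Other genes of translation and ribosome production were then examined list by list, some of which share genes. Of 36 initiation factors 12 were higher and 2 lower, with a median log2FC of 0.13. Eif4b, which helps unwind the mRNA leader, averaged 346 ± 49.1 CPM in Rik null and 227 ± 18.8 CPM in WT, with no overlap (log2FC 0.60, SE 0.08, adjusted p = 4.25e-06). Eif3l and Eif3e, of the scaffold that binds the small subunit, had log2FC of 0.40 (adjusted p = 3.21e-05) and 0.48 (adjusted p = 2.77e-04), and Eif2b3, of the nucleotide exchange factor for Eif2, one of 0.54 (adjusted p = 6.55e-05). Of 11 genes listed as elongation factors or related to them, 1 was higher and 3 were lower, with a median of -0.12. The gene that was higher, Eef2k, encodes no factor but the kinase that inhibits elongation factor Eef2. Eef2k averaged 40.1 ± 3.06 CPM in Rik null and 29.4 ± 2.04 CPM in WT (log2FC 0.45, adjusted p = 4.99e-05). Eef1a2, the form of neurons and muscle, averaged 737 ± 50.4 CPM in Rik null and 911 ± 64.4 CPM in WT (log2FC -0.31, adjusted p = 2.42e-04), and Eif5a2 fell by 0.23 on the log2 scale (adjusted p = 0.00555).

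Among 27 other TOP RNAs, which include genes of the lists just given, 13 were higher and 2 lower, with a median of 0.22. Gas5, a noncoding host of small nucleolar RNAs, averaged 69.4 ± 12.6 CPM in Rik null and 39.9 ± 5.19 CPM in WT, with no overlap (log2FC 0.80, SE 0.10, adjusted p = 5.16e-06). Of 97 ribosome assembly genes 21 were higher and 7 lower, with a median of 0.06. Gnl2 and Ddx21, a GTPase and a helicase of the nucleolus, had log2FC of 0.63 (adjusted p = 1.57e-06) and 0.47 (adjusted p = 2.10e-05). Rrp12, which acts in export of precursor subunits, averaged 24.6 ± 2.77 CPM in Rik null and 36.3 ± 3.26 CPM in WT (log2FC -0.56, adjusted p = 2.90e-05).

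Of 23 genes for rDNA transcription that were found, 4 were higher and 3 lower, with a median of 0.06. Taf1d, of the factor that places RNA polymerase I at its promoter, averaged 26.8 ± 6.45 CPM in Rik null and 14.5 ± 1.87 CPM in WT, with no overlap (log2FC 0.88, SE 0.12, adjusted p = 1.51e-05). Rrn3, which activates that polymerase, had a log2FC of 0.16 (adjusted p = 0.0212), and Ttf1, which ends its transcripts, one of -0.60 (adjusted p = 0.00325). Of 37 tested genes for mTORC1 and TOP control 9 were higher and 4 lower, with a median of 0.08. Castor2 and Sesn1, of the amino acid sensing pathway upstream of mTORC1, had log2FC of 0.35 (adjusted p = 1.79e-04) and 0.56 (adjusted p = 4.19e-04), and the GTPase gene Rragc one of 0.43 (adjusted p = 4.74e-04). Over all 7 lists, 222 distinct genes were tested, 56 of them higher and 20 lower. Of all genes tested 34.4% passed in either direction, 16.5% higher and 17.9% lower. The share passing was 38.9% for initiation factors, 36.4% for elongation factors and related genes, and 55.6% for other TOP RNAs. It was 28.9% for ribosome assembly, 30.4% for rDNA transcription and 35.1% for mTORC1 and TOP control.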

How the data were processed

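Total RNA of 14 brains was sequenced. The deposited table holds unnormalized counts per gene, with FPKM values, which equal counts divided by gene length and a constant per library (100% within a tolerance of 1e-06) and were not tested. Further deposited columns hold the authors' own fold changes and p-values and were not used. The aligner, counter, annotation and strand setting were not given in the sources used here. The processing notes name GRCm38, but only 1448 of 52073 shared identifiers had the GENCODE M21 chromosome and start, so no position was taken from the table.

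Counts were tested with edgeR 4.0.16 (R 4.3.3) with filterByExpr, TMM scaling and genotype as the only term, two-sided, at an adjusted p of 0.05. Log2 CPM used a prior count of 2. The SE is the log2 fold change over the square root of F. Members and lists were chosen with earlier results of these data known. Named members were up to 10 of smallest p in each direction, the P-stalk, paralogs, extremes of level and spread, and up to 3 genes per list, and others named were added after their values were seen. No libraries were identical (smallest chi-square per degree of freedom 4.47). The alternatives were a DESeq2 1.42.0 Wald test, other scalings and filters, sex, replicate block, length offset, robust fit, libraries left out, and each sex alone. Members summed with their copies were added after seeing the data. Scripts were tested on simulated data. Some genes are not reported here by name, though they are in every count and median.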

Additional observations from a re-analysis of the deposited data

Results flagged for a closer look

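Single libraries far from the other 6 of their genotype were looked for in 92 groups of 7, of which chance marks about 5%, and 19 were found. Rik null 1 was the library apart in 16 of them. It was high for the members Rpl7 (384 CPM), Rps15a (239 CPM), Rps14 (443 CPM), Rpl6 (373 CPM), Rps7 (298 CPM), Rps18 (229 CPM) and Rplp0 (385 CPM). It was also high for Rpsa (504 CPM), Rack1 (280 CPM), Taf1d (40.7 CPM), Sesn1 (164 CPM), Eif4b (455 CPM), Eif3e (168 CPM), Ddx21 (51.4 CPM) and Eif3l (102 CPM), and low for Rrp12 (18.8 CPM). Rik null 5 was apart for Rpl17 (117 CPM). WT 4 was low for Gnl2 (32.3 CPM) and WT 6 for Eif3l (59.2 CPM). The core level and the members' share of counts had no library apart by this measure.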

How the results depend on the processing

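Counts and medians of members, their calls and the log2 fold changes of named genes were recomputed under 31 alternatives, or 28 to 30 for 5 genes of low or copied counts. Correlations, relative levels, the split by length, marker sums and start motifs were not. The median log2 fold change of the members stayed above 0, from 0.05 to 0.30. The count of members higher (14) was 34 with library size alone, 34 with a length offset, 8 without Rik null 1 and WT 4 together, 9 without WT 2 and WT 6 together and 0 in females alone, and 8 to 25 when single libraries were left out. Among all genes tested, 3890 of 16882 were higher with library size alone and 3245 of 16882 with a length offset. The numbers were 2397 of 16883 without Rik null 1 and WT 4, 2461 of 17396 without WT 2 and WT 6, and 1282 of 17515 in females alone. The count lower (1) was 0 with library size alone, in females alone and in males alone, and 0 to 1 with single libraries left out. Companion genes (56 higher, 20 lower) numbered 22 and 11 in females alone and 34 and 4 in males alone, where fewer samples enter. With a replicate block 33 of 84 members were higher, beside 2898 of 16882 genes tested. With a length offset and replicate block 49 of 84 members were higher, beside 3217 of 16882 genes tested. The labels do not say whether equal numbers pair animals. Deviations of same-numbered libraries correlated at -0.06 to 0.14 over 7 pairs. Of the Rik null libraries 3 of 7 were closest to their own number, so these values cannot decide whether the numbers pair animals. Signs turned for genes that passed in no setting. With library size alone these were Rplp1 (0.0489), Rps27l (0.0405) and Rpsa (0.0412), with the replicate block Rplp1 (0.00253), and in males alone Rplp1 (0.12), Rps27l (0.12) and Rpsa (0.10). In females alone they were Rpl9-ps6 (-0.0435), Rps18-ps5 (-0.00986) and Rpl10-ps3 (-0.12). Without Rik null 1 and WT 4 they were Rps27rt (0.12), Rpl22l1 (-0.0342) and Rps18-ps5 (-0.0619), and without WT 2 and WT 6 Rps27rt (0.16). Over single libraries left out, Rplp1 ranged from -0.11 to 0.0674, Rps27l from -0.10 to 0.0382, Rps27rt from -0.44 to 0.20, Rpsa from -0.10 to 0.0224, Rps18-ps5 from -0.0180 to 0.20 and Rpl10-ps3 from -0.0389 to 0.20. The causes were not tested. Low counts limit Rpl24, Rps10 and the 9 members not tested.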
